A study of Rattus norvegicus with 4 samples.

Results

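The 44 genes described here encode the machinery of mitosis. They were chosen by name, as genes of mitosis, when earlier results of these data were known. Of these, 38 had a probe set of their own among the 14218 genes that the array measures. Cdc25c, Ndc80, Ncapg and Tpx2 have no named probe set in the annotation used here, and the probe sets for Ckap2 and Anln are annotated with several genes, so these 6 have no value below. The cells are ROE2, an immortal epithelial line made from fetal rat tongue. The rats were transgenic Wistar animals and every group carries their transgene, the SV40 large T antigen in a temperature-sensitive form. This viral oncoprotein keeps cells dividing at the permissive temperature. All cells were first grown for 24 h at 33 °C on collagen in medium with 2% serum and 10 ng/ml EGF. They were then kept at 37 °C for 0, 3, 6 or 9 days, with day 0 named as the control in the labels. RNA of each day was hybridised to 1 Affymetrix array, so each group is 1 array of 1 cell line, there was no replicate check and no test was run, and the day cannot be told apart from the array.

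Cells enter mitosis when cyclin B and cyclin A bind and switch on the kinase Cdk1. Condensin then compacts the chromosomes, kinetochores tie them to spindle microtubules, and a checkpoint delays anaphase until all are attached. The anaphase-promoting complex then marks cyclins and securin for destruction, and cytokinesis parts the daughter cells. The mRNAs of most of these genes peak late in the cell cycle, so their level in a culture is widely used as a readout of how many cells divide, and in a stratified epithelium division is kept to the basal layers. In bulk RNA fewer dividing cells and less RNA per cell cannot be told apart.

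Values are on the log2 scale of the array, where a difference of 1 is a factor of 2, and they are not compared between genes because probe sets differ in brightness. All 6 epithelial markers were present at 9.68 or more on every array. None of 6 fibroblast and 2 measured endothelial markers was above the brightest bacterial control of its array, which read 4.19 to 4.56, while 2 of 4 leukocyte genes and 2 of 4 muscle genes were, up to 6.54 for Cd68. The median of the 8802 genes that reached 6 on any of the 4 arrays, called all genes below, lay at -0.05, -0.18 and -0.14 against day 0 on days 3, 6 and 9. The spike-ins are the hybridisation controls bioB, bioC, bioD and cre, and they give no measure of RNA per cell. Spike-in transcripts lay 0.14, 0.39 and 0.63 above day 0. Centring the arrays on them would lower every difference from day 0 below by these amounts, and the median gene would then lie at -0.19, -0.57 and -0.77. The difference between 3' and 5' probe sets of beta-actin was 2.25, 2.44, 1.22 and 2.35 on days 0, 3, 6 and 9, so day 6 stood apart in it. For GAPDH the same difference was 0.10, 0.04, -0.02 and 0.18, and day 6 lay near the other days.

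All 38 mitosis genes read 6.67 or more on every array, well above the bacterial controls, and their mRNAs were still present on day 9. On day 3 they were spread about 0, with 20 of 38 below day 0 and a median of -0.02, which is -0.16 with spike-in centring and 0.0006 with median-gene centring. On day 6 the median was -0.53 with 32 of 38 below day 0, and on day 9 it was -0.57 with 34 of 38 below. Of all genes 55.8%, 62.7% and 61.0% were below day 0 on days 3, 6 and 9. The median of the mitosis genes minus that of all genes was 0.04, -0.35 and -0.43 on the 3 days, and centring shifts both medians alike.

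How many genes passed a threshold depended on the scaling. As deposited, 2 of 38 genes were 2-fold or more lower on day 9, where 6.25% of all genes were, and 0 were higher, against 5.57% of all genes. With spike-in centring 25 were 2-fold or more lower on day 9, where 33.1% of all genes were, and with median-gene centring 1 was, against 4.67%. At 1.5-fold 18 of 38 were lower on day 9, where 19.6% of all genes were, and 1 was higher, where 12.0% of all genes were. With spike-in centring the 18 became 34, against 64.5% of all genes, and with median-gene centring 12, against 14.5%. On day 6 the same threshold gave 16 lower and 1 higher, against 22.9% and 12.1% of all genes. With median-gene centring 6 of 38 were lower on day 6, a share near the 15.7% of all genes, and with spike-in centring 26, against 48.9%. On day 3 it gave 1 lower and 2 higher, against 10.0% and 10.2%. Days 6 and 9 are both set against the same day 0 array.

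**Figure D1:**
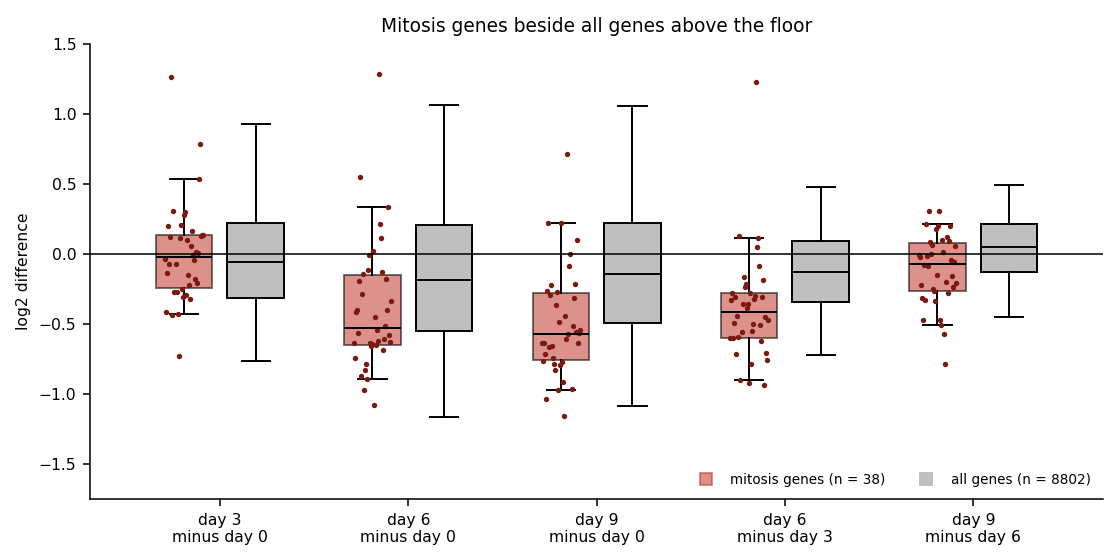
Log2 differences of the 38 mitosis genes (red boxes and points) and of all 8802 genes (grey boxes) in 5 comparisons of 2 arrays each. Lines in boxes are medians, boxes hold the middle 50% and whiskers run from the 5th to the 95th percentile of genes. The mitosis medians are -0.02, -0.53, -0.57, -0.41 and -0.07 from left to right, and with spike-in centring they are -0.16, -0.92, -1.20, -0.66 and -0.31.

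Most of the change lay between the day 3 and day 6 arrays. Between these arrays 34 of 38 genes were lower on day 6, with a median of -0.41, where 65.9% of all genes were lower with a median of -0.13. At 1.5-fold 11 were lower and 1 higher, against 9.15% and 3.49% of all genes. The 11 became 5 with median-gene centring, against 4.84% of all genes, and 22 with spike-in centring, against 25.4%. On day 9 against day 6 the median was -0.07, where all genes had 0.05, and 25 of 38 genes were lower, where 42.1% of all genes were. At 1.5-fold 1 was lower and 0 higher, against 2.84% and 2.66% of all genes, and at 2-fold 0 were lower or higher, against 0.591% and 0.250%. Days 6 and 9 both lay below days 0 and 3 for 30 of 38 genes, where 39.1% of all genes had this order. Day 0 was above both day 6 and day 9 for 32 genes, against 55.1% of all genes. The exceptions to the first order were Cdc25b, Aurkb, Cdc20, Smc4, Top2a, Mki67, Kif11 and Nusap1. Each later array was lower than the one before for Ccnb1, Ccnb2, Ccna2, Cks1b, Ttk, Nuf2, Ncapd2 and Kif22, which is 8 of 38 genes against 11.3% of all genes. The last step was only -0.003 for Ccnb1, -0.0022 for Ttk and -0.0192 for Ccnb2. In the other Cks1b probe set it was 0.081. Day 3 was the highest of the 4 days for 16 genes and day 9 for 0, where 22.4% and 20.7% of all genes had their highest value on those days. With spike-in centring Cks2, Cenpe, Pttg1, Kif20a, Kif23, Prc1, Racgap1 and Ect2 of these 16 lay below day 0 on day 3. The counts of day order are given as deposited only. Day 9 was the lowest for 21 genes, against 25.4% of all genes.

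Of the 38 genes 5 were 2-fold or more apart in any of 5 comparisons, where 18.3% of all genes were. Day 9 against day 3 was not among these comparisons, and its share of all genes was not counted. As deposited, Hmmr, Cdca8 and Pttg1 were 2-fold or more lower in it, at -1.09, -1.07 and -1.01. Cdc25b and Ncapd2 were too. Of the 5 genes Ncapd2 and Cks1b were lower on day 9 and Ube2c was lower on day 6. Cdc25b was higher on day 3 and Smc4 was higher on day 6. Promoters of 4 of these 5 genes and of Ccnb2 are shown here because mitosis genes are known to share promoter elements. In human and mouse cells the factor NF-Y binds CCAAT boxes, and the CHR element, TTTGAA or less often TTCGAA, is bound by the MuvB complex, with DREAM proteins in resting cells and with B-Myb or FoxM1 in dividing ones. Ccnb2 is a known example in human and mouse of a promoter with CCAAT boxes upstream of a CHR. The sequences are from RefSeq on GRCr8, run 5′ to 3′ along the gene from 250 bases before its annotated start to 50 after, and capitals mark the CCAAT box and both forms of the CHR on either strand. On the opposite strand a CCAAT box reads ATTGG. The common CHR form then reads TTCAAA, and the rarer form reads alike on both strands. Ncapd2 is at chr4:159677889-159678188 on the minus strand, Cks1b at chr2:177135284-177135583 on the minus strand, Cdc25b at chr3:138859923-138860222 on the plus strand, Smc4 at chr2:155550012-155550311 on the plus strand and Ccnb2 at chr8:79981609-79981908 on the minus strand.
Ncapd2: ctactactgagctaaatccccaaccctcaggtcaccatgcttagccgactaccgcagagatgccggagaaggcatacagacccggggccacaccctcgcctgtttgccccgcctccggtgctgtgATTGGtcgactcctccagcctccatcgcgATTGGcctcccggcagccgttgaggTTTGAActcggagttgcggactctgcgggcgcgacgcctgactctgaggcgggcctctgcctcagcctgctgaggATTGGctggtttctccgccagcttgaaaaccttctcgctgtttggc
Cks1b: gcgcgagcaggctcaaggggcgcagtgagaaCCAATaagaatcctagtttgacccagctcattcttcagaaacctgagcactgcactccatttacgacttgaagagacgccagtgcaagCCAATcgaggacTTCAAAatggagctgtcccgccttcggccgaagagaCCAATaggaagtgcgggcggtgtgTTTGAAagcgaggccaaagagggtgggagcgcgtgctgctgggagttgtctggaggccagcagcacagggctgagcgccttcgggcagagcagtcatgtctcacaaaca
Cdc25b: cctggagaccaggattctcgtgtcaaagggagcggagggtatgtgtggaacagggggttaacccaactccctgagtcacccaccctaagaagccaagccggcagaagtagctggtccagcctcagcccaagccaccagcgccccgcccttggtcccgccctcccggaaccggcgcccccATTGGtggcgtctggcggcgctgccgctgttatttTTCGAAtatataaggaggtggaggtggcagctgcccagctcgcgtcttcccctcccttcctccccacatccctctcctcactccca
Smc4: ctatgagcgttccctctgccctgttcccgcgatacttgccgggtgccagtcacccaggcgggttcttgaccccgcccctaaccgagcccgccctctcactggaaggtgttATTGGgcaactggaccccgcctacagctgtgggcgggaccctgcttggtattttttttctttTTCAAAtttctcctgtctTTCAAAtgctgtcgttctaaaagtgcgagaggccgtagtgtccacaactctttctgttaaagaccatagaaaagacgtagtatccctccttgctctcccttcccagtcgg
Ccnb2: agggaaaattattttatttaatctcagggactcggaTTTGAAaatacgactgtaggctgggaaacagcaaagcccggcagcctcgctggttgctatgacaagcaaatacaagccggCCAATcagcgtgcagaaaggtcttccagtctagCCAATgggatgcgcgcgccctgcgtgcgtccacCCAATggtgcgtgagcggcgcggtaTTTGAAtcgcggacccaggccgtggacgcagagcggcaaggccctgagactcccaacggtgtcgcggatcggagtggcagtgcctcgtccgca

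The Ccnb2 promoter holds 3 CCAAT boxes, which begin at -134, -101 and -68, then a TTTGAA at -43 and another far upstream at -214. Cks1b likewise has 3 CCAAT boxes and 2 TTTGAA. Its TTTGAA at -119 is on the opposite strand and lies between CCAAT boxes at -131 and -83. Ncapd2 has 3 CCAAT boxes at -125, -96 and 5, all on the opposite strand, with TTTGAA at -71. The Ncapd2 box at 5 thus lies after the gene start and downstream of the TTTGAA. The Cdc25b promoter has 1 CCAAT at -71 on the opposite strand and the form TTCGAA at -36. Smc4 has 1 CCAAT at -140 and 2 TTTGAA at -78 and -60, all on the opposite strand.

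RefSeq promoters were found for 34 of the 38 genes, all but Ccna2, Aurkb, Ube2c and Racgap1. TTTGAA or TTCGAA was present in 26 of these 34 promoters (76.5%), where 13.3% of 7424 promoters of all genes and 19.5% of all 27457 RefSeq promoters hold it. At least 1 CCAAT was present in 27 (79.4%), where 38.3% of promoters of all genes hold it, and 2 or more in 19 (55.9%), against 14.4%. Both kinds stood together in 23 promoters (67.6%), against 5.72%. In 2 promoters, those of Cdca8 and Mki67, a CCAAT shares its edge with a TTTGAA. Aurka, Bub1, Ncaph and Kif2c hold none of the 3 motifs in this window. The median day 9 difference was -0.62 over the 26 genes with TTTGAA or TTCGAA, from -1.15 to 0.72, and -0.40 over the 8 without, from -0.66 to -0.0029, so the ranges overlap. On day 6 against day 0 the order turned, with medians of -0.50 with these letters and -0.53 without. These matches are letters in a window and not measured sites.

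**Figure D2:**
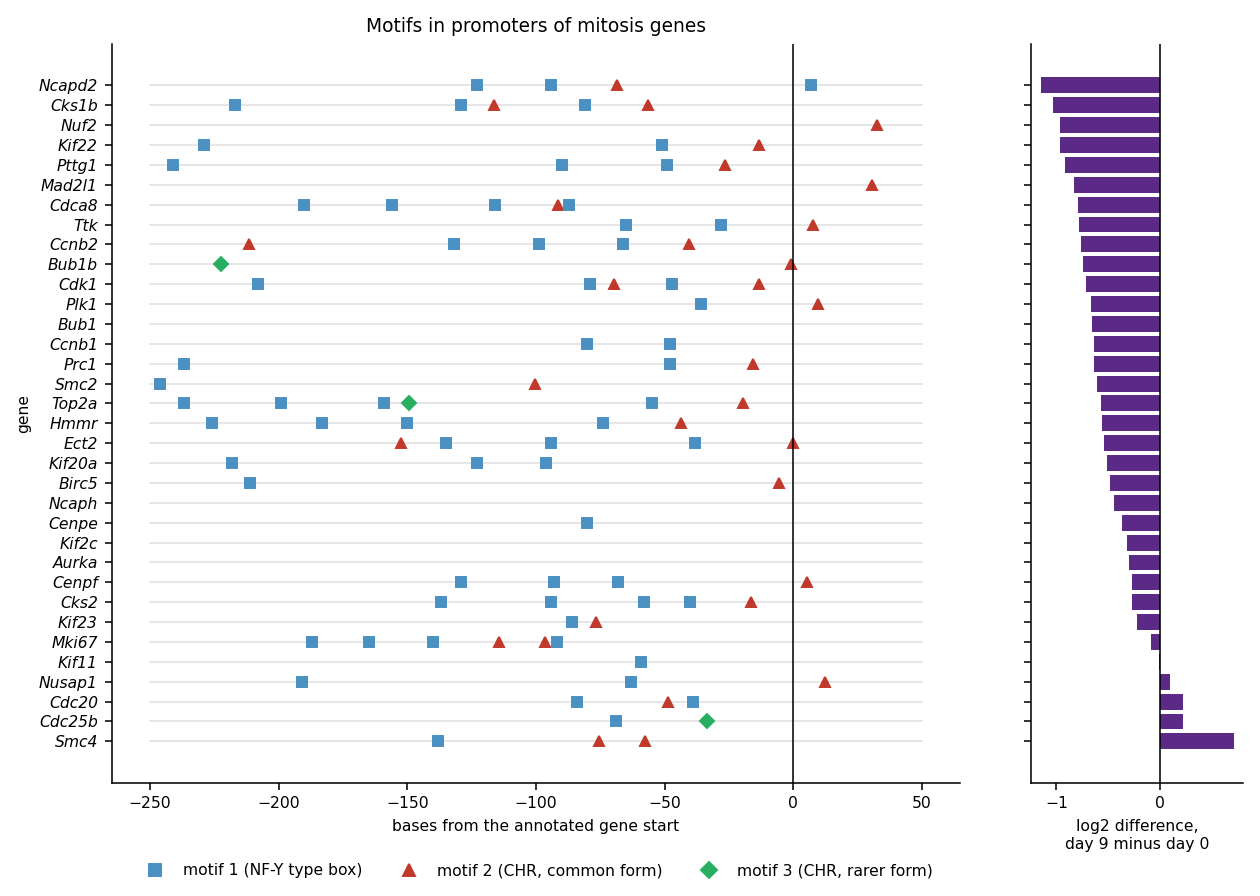
Positions of CCAAT (motif 1, squares), TTTGAA (motif 2, triangles) and TTCGAA (motif 3, diamonds) in 34 promoters of mitosis genes, in bases from the annotated gene start, with the log2 difference of day 9 from day 0 as bars. CCAAT begins at a median of -96 over 64 matches and the CHR letters at -44.5 over 34 matches, and 4 promoters are empty. With spike-in centring each bar would be 0.63 lower, which turns the bars of Cdc25b, Cdc20 and Nusap1 below 0, and median-gene centring turns the bars of Mki67 and Kif11 above 0.

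Among the cyclins, kinases and kinase regulators 9 of 10 measured genes were below day 0 on day 9, with a list median of -0.64. Of all genes 61.0% were, with a median of -0.14. Ccnb1, which encodes cyclin B1, the activator of Cdk1 at mitotic entry, read 9.56, 9.52, 8.92 and 8.92 on days 0, 3, 6 and 9. Its relative Ccnb2 read 10.21, 9.79, 9.47 and 9.45, and Ccna2, whose cyclin A2 acts from S phase into early mitosis, 9.89, 9.76, 9.48 and 9.26. Ccnb2 was already 0.42 lower on day 3, while Ccnb1 was at -0.03 in the used probe set and at -0.41 in its other one. Cdk1, the kinase itself, was at 11.09, 11.29, 10.69 and 10.38, with its highest value on day 3 and its lowest on day 9. Plk1, the polo-like kinase of centrosomes and mitotic entry, read 9.15, 8.71, 8.27 and 8.49, so its lowest value was on day 6. The Aurora kinases moved least of the kinases. Aurkb, the kinase of the chromosomal passenger complex, read 8.40, 8.13, 8.26 and 8.18, and the spindle pole kinase gene Aurka was at 0.31, -0.28 and -0.29 against day 0.

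The paired Cdk subunit genes Cks1b and Cks2 differed in size. Cks1b, which also helps the ubiquitin ligase SCF destroy p27, read 10.98, 10.90, 10.42 and 9.94 and was 2.05-fold lower on day 9 than on day 0. This passed 2-fold as deposited but not with arrays centred on the median gene, where the difference was -0.93. The other Cks1b probe set was at -0.44. Cks2 read 11.12, 11.24, 10.93 and 10.85, a difference of -0.27 on day 9.

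Cdc25b, which encodes a phosphatase that removes the inhibitory phosphates from Cdk1, went the other way. It read 7.94, 9.20, 8.49 and 8.16 and was 2.40-fold higher on day 3 than on day 0, where 4.31% of all genes were 2-fold or more higher and 2.15% lower. It was lower again on each later array and on day 9 stood 0.22 above day 0, or -0.41 with spike-in centring.

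**Figure D3:**
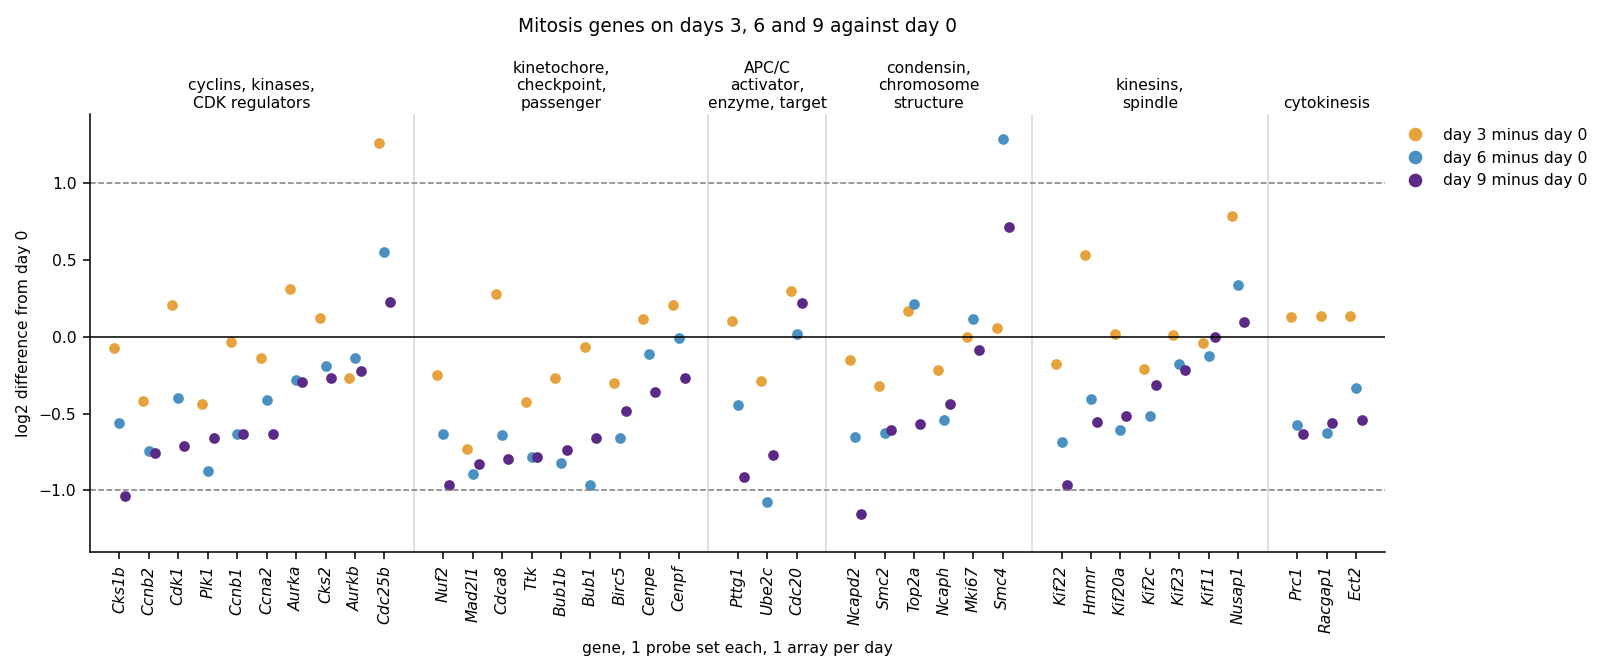
Log2 difference from day 0 on days 3 (orange), 6 (blue) and 9 (purple) for each of 38 mitosis genes, ordered by day 9 value within 6 roles; dashed lines mark 2-fold. Most blue and purple points lie below 0, while Cdc25b and Nusap1 stand highest on day 3 and Smc4 on day 6. With spike-in centring the orange, blue and purple points would lie 0.14, 0.39 and 0.63 lower, which puts the cytokinesis genes below 0 on day 3.

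All 9 measured kinetochore, checkpoint and chromosomal passenger genes were below day 0 on days 6 and 9, with list medians of -0.66 and -0.74. Of all genes 62.7% and 61.0% were below on those days, with medians of -0.18 and -0.14. Cenpe and Cenpf lay above 0 on day 6 with arrays centred on the median gene. Nuf2, a subunit of the Ndc80 complex that grips microtubules, read 9.46, 9.21, 8.82 and 8.49, lower on each array. Mad2l1, the checkpoint protein that holds back Cdc20, read 9.07, 8.34, 8.18 and 8.24. It was thus 0.73 lower on day 3 already, and it was the 1 member 1.5-fold or more lower on that day. Its other probe sets were at -0.30 and -0.28 on day 3. Cdca8, which encodes the passenger protein borealin, read 8.14, 8.42, 7.50 and 7.35, and most of its change lay between days 3 and 6, at -0.92 for day 6 against day 3. Birc5, the passenger protein survivin, read 9.44, 9.13, 8.78 and 8.96.

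The checkpoint kinase genes had their lowest values on day 6 or 9. Bub1 was at -0.07, -0.97 and -0.66 against day 0 on days 3, 6 and 9, its relative Bub1b at -0.27, -0.82 and -0.74, and Ttk, which encodes the kinase Mps1, at -0.42, -0.78 and -0.79. The large kinetochore proteins of the outer corona moved less. Cenpf read 8.72, 8.92, 8.71 and 8.45, and the kinesin gene Cenpe was at 0.12, -0.12 and -0.36 against day 0.

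The 3 genes around the anaphase-promoting complex went different ways. Ube2c, the E2 enzyme that starts ubiquitin chains for the complex, read 10.50, 10.21, 9.42 and 9.73, and its 2.11-fold lower value on day 6 than on day 0 passed 2-fold, as 8.08% of all genes did downwards and 5.74% upwards. With arrays centred on the median gene it was at -0.92. Pttg1, which encodes securin, the inhibitor of separase, read 9.64, 9.74, 9.20 and 8.73. Cdc20, the activator of the complex in mitosis, read 7.88, 8.18, 7.90 and 8.10 and was 0.22 higher on day 9 than on day 0, against -0.0048 in another of its probe sets and -0.41 with spike-in centring.

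Condensin and chromosome structure genes went both ways, from -1.15 to 0.72 on day 9. Ncapd2, a HEAT-repeat subunit of condensin I, read 8.02, 7.87, 7.37 and 6.87 and was 2.22-fold lower on day 9 than on day 0, the lowest difference among the 38 genes. Smc2, an ATPase shared by condensins I and II, read 9.32, 9.00, 8.70 and 8.71, and Ncaph, the clasp subunit of condensin I, was at -0.22, -0.54 and -0.44 against day 0. Smc4, the partner of Smc2 in the same ring, read 7.44, 7.50, 8.73 and 8.16. It was 2.44-fold higher on day 6 and 1.64-fold higher on day 9 than on day 0, and 2.34-fold higher on day 6 than on day 3, where 0.829% of all genes were 2-fold or more higher and 1.60% lower. With spike-in centring it was 0.90 higher on day 6 and 0.08 on day 9. Its other probe set read 4.55, 4.78, 4.55 and 4.25, near the bacterial controls, and was at 0.0078 on day 6 against day 0. A like pattern was seen in another probe set of Kif23, at 5.30, 5.38, 6.84 and 6.06, while the probe set used for Kif23 read 10.50, 10.51, 10.33 and 10.29. On day 6 the 5' probe set of beta-actin also read higher, at 11.17, 10.53, 12.32 and 11.03 on days 0, 3, 6 and 9, and its part in these values was not tested. The difference between 3' and 5' probe sets of GAPDH did not stand apart on day 6.

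Top2a, the topoisomerase that untangles sister chromatids, read 9.59, 9.75, 9.80 and 9.02. It kept its level to day 6 and was the 1 member 1.5-fold or more lower on day 9 than on day 6, at -0.78, with its other probe set at -0.82. Mki67, which coats mitotic chromosomes and is the usual stain for proliferating cells, read 9.61, 9.61, 9.72 and 9.53. Its whole range over the 4 days was 0.20 as deposited. On day 9 against day 0 it was at -0.08, smaller in size than the median gap of 0.38 between probe sets of a gene in that comparison. There it was at 0.02 with median-gene centring and at -0.72 with spike-in centring.

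**Figure D4:**
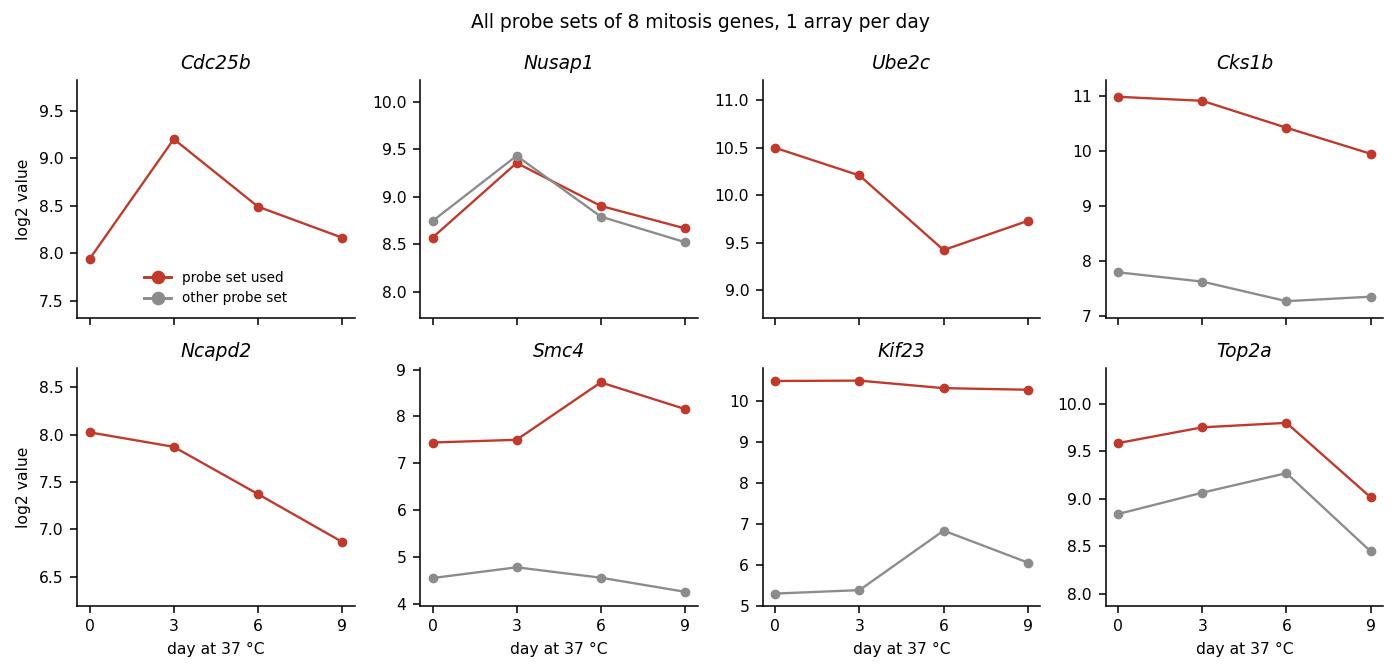
Log2 values on days 0, 3, 6 and 9 for every probe set of 8 mitosis genes, the used set in red and others in grey, 1 array per day; each panel has its own scale. Nusap1 and Top2a probe sets run alongside each other, those of Smc4 and Kif23 part on day 6, and Ncapd2 is lower on each array, down to 6.87 on day 9.

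Of 7 measured kinesin and spindle genes 6 were below day 0 on day 6, with a list median of -0.40, where 62.7% of all genes were, with a median of -0.18. On that day Kif11 lay above 0 with median-gene centring and Nusap1 below 0 with spike-in centring. Kif22, a chromosome-arm kinesin, read 9.29, 9.11, 8.61 and 8.33. Kif20a, which carries the passenger complex to the midzone, read 8.85, 8.87, 8.25 and 8.34. Kif11, the motor that pushes spindle poles apart, read 8.58, 8.54, 8.45 and 8.58, and its other probe set was at -0.46 on day 9, against -0.0029 in the used one. The microtubule depolymerase gene Kif2c was at -0.21, -0.52 and -0.31 against day 0, and Kif23, a centralspindlin motor, at 0.0082, -0.18 and -0.21. Hmmr, a spindle assembly protein and hyaluronan receptor, read 8.24, 8.77, 7.83 and 7.68, the highest on day 3 and 0.94 lower on day 6 than on day 3. Nusap1, which bundles spindle microtubules around chromatin, read 8.57, 9.36, 8.90 and 8.67, and was 0.79 higher on day 3. Other probe sets of Hmmr and Nusap1 were 0.82 and 0.69 higher on day 3, so both genes were highest on day 3 in each of their probe sets. The other Nusap1 set was at -0.22 on day 9, against 0.10 in the used one.

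The 3 measured cytokinesis genes ran closely alongside each other. Prc1, the antiparallel microtubule bundler of the midzone, read 9.38, 9.51, 8.81 and 8.75. Racgap1, the GTPase-activating partner of Kif23 in centralspindlin, read 10.18, 10.32, 9.56 and 9.62. Ect2, the exchange factor that switches on RhoA at the cleavage furrow, read 10.41, 10.54, 10.07 and 9.86. All 3 were 0.13 to 0.14 above day 0 on day 3, or just below it with spike-in centring, and -0.54 to -0.63 on day 9. The other probe set of Racgap1 was at -0.05 on day 9.

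Probe sets of a gene were compared because replicates are lacking. They read the same RNA on the same array, so their distance holds no variation between cultures or arrays. Of 12 other probe sets above 6 for 11 of the members, 12 had the sign of the used set on day 3, 10 on day 6 and 9 on day 9 against day 0. Their median distance from it was 0.16, 0.29 and 0.39, and the largest was 0.45, 1.72 and 0.975. Over 2700 other probe sets of all genes the median distance was 0.17, 0.41 and 0.38. Differences under about the size of these medians are within the disagreement of probe sets, and larger ones can be too. Ccnb1 had -1.12 on day 9 in its other probe set, against -0.64 in the used one.

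Other genes of these pathways are read against the same shares of all genes on day 9, 61.0% below day 0, 19.6% 1.5-fold or more lower and 12.0% higher, with a median of -0.14. Of 28 other kinetochore and checkpoint genes 23 were below day 0, 12 were 1.5-fold or more lower and 0 higher, with a median of -0.48. Mis18a, which primes centromeres for CENP-A, was at -1.14, the centromere gene Cenpw at -1.12 and Ska1, of the outer kinetochore, at -1.04. In 24 other spindle, centrosome and cytokinesis genes 19 were below day 0, 10 were 1.5-fold or more lower and 0 higher, with a median of -0.46, led by the augmin gene Haus1 at -1.20, Depdc1 at -0.89 and the kinesin gene Kif18b at -0.85. The 18 other genes of the anaphase-promoting complex had 13 below day 0, 7 lower at 1.5-fold, 0 higher and a median of -0.34, with its subunits Anapc4 and Anapc1 at -0.97 and -0.81 and the separase gene Espl1 at -0.80.

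Cohesin and condensin II genes had a median of -0.28 over 14 genes on day 9. The cohesin regulators Pds5b and Pds5a were at -0.79 and -0.66, whereas the cohesin loader Nipbl read 8.31, 8.27, 9.96 and 10.05. In the other kinases and phosphatases the median was -0.14 over 13 genes, that of all genes, with 2 lower and 2 higher at 1.5-fold. Cdc14a, a phosphatase gene, read 6.59, 8.21, 7.97 and 8.04, the PP2A inhibitor gene Ensa was 1.10 higher on day 9, and the kinase gene Melk was at -0.69.

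Among 20 genes of transcription factors that control the cell cycle the day 9 median was -0.12. Foxm1, the activator of mitosis genes, read 7.26, 6.88, 6.46 and 6.55, and Mybl2, which encodes B-Myb, 7.58, 6.97, 6.87 and 7.04. E2f6, a repressor, was at -0.81, Nfyb, an NF-Y subunit, at -0.55 and E2f1 at -0.35 on day 9. G1 cyclins went both ways. Ccnd2 was 0.94 higher on day 9, Ccnd1 was at -0.71 after 0.45 on day 3, Ccnd3 at -0.84 and Ccne1 at -0.40 after -0.98 on day 6.

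DNA replication genes gave a median of -0.33, -0.65 and -0.62 over 35 genes on days 3, 6 and 9, where the mitosis genes had -0.02, -0.53 and -0.57. On day 3 that was 33 of 35 replication genes below day 0, beside 20 of 38 mitosis genes and 55.8% of all genes. With spike-in centring the mitosis count was 29, where 68.8% of all genes were below day 0, and with median-gene centring 19, against 53.8%. From day 6 to day 9 the medians were 0.10 for replication and -0.07 for mitosis. With 1 array a day these differences between lists have no test. On day 9 20 replication genes were 1.5-fold or more lower and 1 higher, against 19.6% and 12.0% of all genes, and Dut, Rfc5 and Rfc3 were at -1.07, -1.06 and -0.90.

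**Figure D5:**
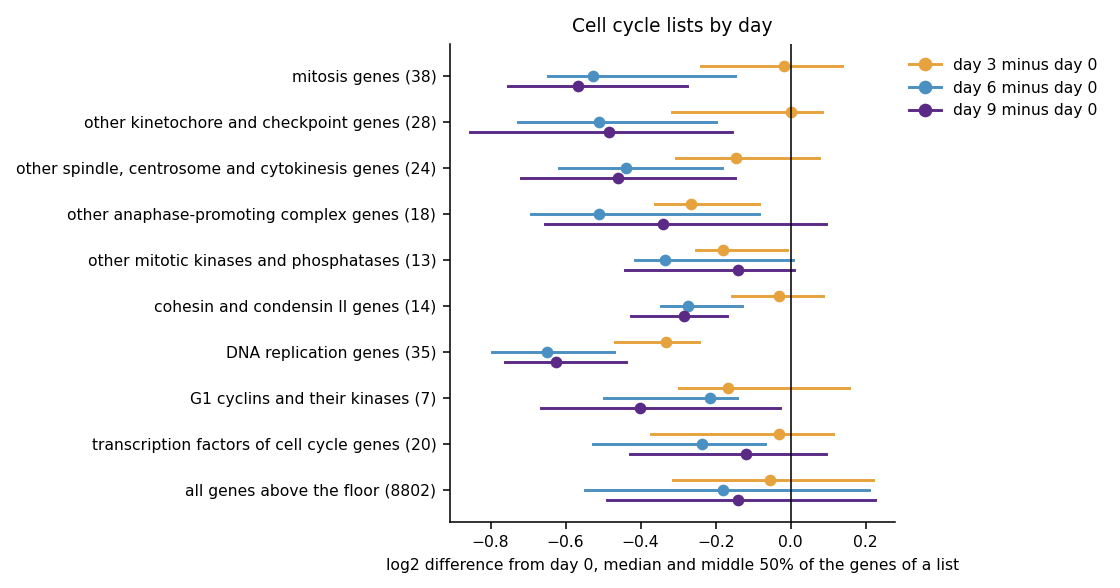
Median (point) and middle 50% (line) of log2 differences from day 0 on days 3 (orange), 6 (blue) and 9 (purple) for the 38 mitosis genes, for 8 other cell cycle lists with their gene numbers and for all 8802 genes. The mitosis genes and the other kinetochore genes sit near 0 on day 3 and near -0.5 on days 6 and 9; replication genes are at -0.33 on day 3. Spike-in centring moves every point of a day to the left by 0.14, 0.39 or 0.63.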

How the data were processed

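RNA of ROE2 cells from 4 days was measured on 4 arrays, 1 for each day, and the labelled day defined each group. The deposited table holds log2 probe set values that the authors made with RMA, per the submitters' processing notes; no source used here gives its version. RMA gives all arrays nearly the same distribution, so these values cannot show whether total RNA per cell changed. No source states the log base, and values of 1.55 to 14.2 point to base 2. Of 31099 probe sets 20832 had 1 gene symbol, 436 several and 9831 none, and 20764 Entrez identifiers matched RefSeq with 0 symbols changed. Where a gene had several probe sets the one brightest on average was used, and genes that reached 6 on any array were kept. Higher and lower mean 2-fold or 1.5-fold apart by size alone, and how often this rule errs in these data was not tested. Values on all days are given for members 2-fold apart in any comparison, for the 3 largest and the smallest day 9 differences of each role and for a fixed set, and 3 genes of each other list are named, with Foxm1, Mybl2, E2f1, Ccnd1 and Ccne1. Other probe sets were to be given where they differ by 0.5 or more on day 9. Daily values of Nusap1 and Kif23, and closer probe sets, were added after they were seen. The members and lists were chosen with earlier results of these data known. The number of arrays limits the precision. Alternatives changed the floor, the probe set, the scaling and the threshold. Python 3.11.15, numpy 2.4.6, pandas 2.3.3 and matplotlib 3.10.9 were used.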

Additional observations from a re-analysis of the deposited data

How the results depend on the processing

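Against day 0 the medians kept their direction on days 6 and 9 under all alternatives run, while that of day 3 was 0.0006 with median-gene centring and 0.0011 as a mean over members. Spike-in centring moved them to -0.16, -0.92 and -1.20 on days 3, 6 and 9 against day 0, to -0.66 for day 6 against day 3 and to -0.31 for day 9 against day 6, and centring on the median gene gave -0.27 for day 6 against day 3. With the spike-ins 15 genes on day 6 and 25 on day 9 were 2-fold or more lower than on day 0. Of all genes 21.6% and 33.1% were. With the spike-ins 5 were lower on day 6 than on day 3, against 4.33% of all genes. On day 9 against day 6 it was 1 gene, against 1.37%. On day 6 against day 0 or day 3 0 were higher, where 2.85% and 0.409% of all genes were. Centring on the median gene left 0 lower on day 6 and 1 on day 9, against 5.08% and 4.67% of all genes. The mean over probe sets left 1 lower on day 9, against 5.12% of all genes. It left 0 higher on day 6 against day 0 or day 3, where 5.83% and 0.845% of all genes were. At 1.5-fold 1, 16 and 18 genes were lower on days 3, 6 and 9 against day 0. Of all genes 10.0%, 22.9% and 19.6% were. On day 6 against day 3 11 were lower, against 9.15% of all genes, and on day 9 against day 6 1, against 2.84%. Higher than day 0 were 2 on day 3 and 1 on day 9, against 10.2% and 12.0% of all genes. At 3-fold 0 were lower or higher on days 3, 6 and 9 in the comparisons where 2-fold had called any. The share of all genes at 3-fold was not counted, so this 0 has nothing to be set against. For single genes on day 9 spike-in centring turned 3 of 38 signs, median-gene centring 2, quantile normalization 1 and the mean over probe sets 2 of 37. A floor of 8 left 36 genes, and floors of 5 or none changed no member. No paired analysis was possible because each day has 1 array. Member signals lay well above background, so precision is limited by the single array a day.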
